A study of Arabidopsis thaliana with 21 samples.

Results

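XL sites of AtGRP7-GFP plants were compared with those of GFP-only plants at LL24, 24 h after transfer to continuous light. The comparison used 6 of the 21 iCLIP libraries of the series, 3 for each genotype, chosen by genotype and time point in their labels. iCLIP (individual nucleotide resolution crosslinking and immunoprecipitation) marks the base of an RNA that UV light linked to a protein, because reverse transcription stops next to it. AtGRP7-GFP plants carried the fusion of AtGRP7 and GFP in the grp7-1 mutant, under the AtGRP7 promoter with the 5′ UTR, intron and 3′ UTR of AtGRP7. GFP-only plants carried GFP under the AtGRP7 promoter with its 5′ and 3′ UTR in Col-0, so that the genotypes differed in their background as well as in the protein. All plants were grown in cycles of equal light and dark, were labelled as 18 days old and were crosslinked by UV irradiation (254 nm, 500 mJ/cm2). RNA was recovered from aerial tissue with beads that bind GFP. Transcripts of the 4 green tissue markers RBCS1A, RCA, CAB1 and LHCA1 were listed in every AtGRP7-GFP library, and none of the 4 root markers EXPA7, COBL9, IRT1 and CASP1 was listed in any of the 6 libraries.

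AtGRP7 is a glycine-rich RNA-binding protein with 1 RNA recognition motif. The circadian clock drives its transcript, and it acts on its own transcript and on that of its relative AtGRP8 through alternative splicing. It is also known for roles in cold tolerance, flowering and defence. GFP is not an RNA-binding protein, and its precipitate therefore measures the RNA that the procedure recovers without tagged AtGRP7.

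A count, as deposited, gives how many unique reads marked a position. The authors listed only positions that passed their FDR in a library. A gene that is missing from a library was therefore not measured as 0, and no fold change is given for a gene that 1 genotype lacked. Shares are the counts of a gene in percent of all listed counts of its library and are not scaled by transcript length or abundance. The paper states that iCLIP favours highly expressed transcripts, so that shares do not rank transcripts by strength of binding. A position is called reproducible when at least 2 of the 3 AtGRP7-GFP libraries listed it, and a transcript is called bound when at least 2 of the 3 listed it at any position.

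The highest reproducible positions of the 12 bound transcripts with the largest shares of counts lay on uridines in all but 1 of them, and these transcripts serve mainly photosynthesis. The windows below show all 12, from 10 nt before to 10 nt after the XL site. The capital marks the XL site. All windows are read 5′ to 3′ on the transcript strand and were taken from RefSeq, assembly TAIR10.1.
RBCS1A, coding, minus strand, chr1:25048489-25048509: tgcatcagttTcattgcctac
RBCS3B, 3′ UTR, minus strand, chr5:15377416-15377436: ttttctctttAtgagacaatt
PSBR, coding, plus strand, chr1:29736124-29736144: ccagctggttTcacggtggag
RCA, 3′ UTR, minus strand, chr2:16570833-16570853: ttttgttcccTtttttttttt
RBCS2B, coding, minus strand, chr5:15381230-15381250: tgcatcagttTcattgcctac
PSAL, coding, plus strand, chr4:7521591-7521611: caaaagagtcTcttccttcac
DRT112, coding, minus strand, chr1:7043257-7043277: catcatggccTcagtaacctc
PSBX, 3′ UTR, minus strand, chr2:2587799-2587819: tgtattcgttTcaatgttgca
CAB1, 3′ UTR, plus strand, chr1:10478901-10478921: agtctttgctTcgtgagtgtg
PSBW, 3′ UTR, minus strand, chr2:13019252-13019272: tcaaaagtgtTcacccttcta
LHCA3, 3′ UTR, plus strand, chr1:22701251-22701271: tattcgtgttTtgtaagaaat
THI1, 3′ UTR, plus strand, chr5:22247989-22248009: ttttctggtgTctttgtttct
In 11 of the 12 windows the XL site was a uridine, RBCS3B being the exception with A. The uridine was followed by C in 9 windows and by another uridine in RCA and LHCA3. The windows of RBCS1A and RBCS2B are identical. The authors kept uniquely mapped reads, but the 4 rubisco small subunit genes are close paralogs and the split of reads between them is uncertain.

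A further 7 genes were listed in at least 2 GFP-only libraries and in all AtGRP7-GFP libraries and passed the test described below with a higher share in GFP-only plants. Of their GFP-only positions, those shown here lay inside tRNA genes or upstream of A-rich sequence.
tRNA-Leu in AT1G64120, plus strand, chr1:23802581-23802601: cagactcaagTtctggtcttc
tRNA-Leu in AT4G25635, minus strand, chr4:13076609-13076629: cagactcaagTtctggtcttc
tRNA-Gln in AT4G03405, plus strand, chr4:1501629-1501649: gacattggacTctgaatccag
tRNA-Arg in AT3G12585, minus strand, chr3:3995133-3995153: ggatatcgcgTtagactccga
TPPI, 3′ UTR, plus strand, chr5:3160429-3160449: tcacattgtaTttttgtaaaa
AT5G28410, intron, plus strand, chr5:10358569-10358589: aaaaggatgaTgcttaaaaaa
AT3G27040, beyond the annotated model, minus strand, chr3:9976810-9976830: tactctttaaAcgtaaaaaaa
The capital again marks the XL site, here the position that most GFP-only libraries listed and, among such positions, the one with the most GFP-only counts. AtGRP7-GFP libraries listed these 7 positions as well. In AT4G03410, TPPI and AT3G27040 a position within 3 nt of it had more counts in AtGRP7-GFP plants.

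AtGRP7-GFP plants yielded many more XL sites than GFP-only plants. The 3 AtGRP7-GFP libraries listed 13052, 25115 and 8109 sites in replicates 1, 2 and 3, with summed counts of 45942, 98235 and 27291. The GFP-only libraries listed 208, 293 and 27 sites, with summed counts of 510, 989 and 79. The sets did not overlap, and GFP-only replicate 3 stood apart with the fewest sites. AtGRP7-GFP sites fell on 678, 1142 and 507 genes, and GFP-only sites on 63, 126 and 10. On the log2(sites + 1) scale, AtGRP7-GFP libraries averaged 13.76 ± 0.82 (SD, n = 3) and GFP-only libraries 6.90 ± 1.83 (SD, n = 3), a difference of 6.85. It had p = 0.1 in a two-sided exact permutation test, the smallest p that 3 libraries against 3 can give, so that no comparison of this kind could pass 0.05. Without GFP-only replicate 3 the difference was 5.80. A site rested on a single crosslink in 41.5% to 43.2% of cases in AtGRP7-GFP libraries and in 37.0% to 46.2% in GFP-only libraries. The 10 genes with the most counts held 25.9% to 36.8% of the counts of an AtGRP7-GFP library, 53.9% and 42.4% of those of GFP-only replicates 1 and 2, and 100% in replicate 3, which listed only 10 genes.

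**Figure D1:**
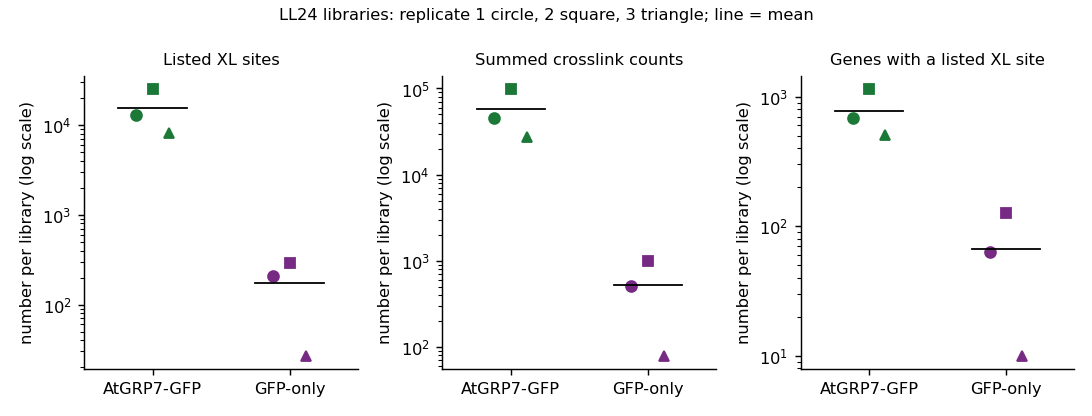
Listed XL sites, summed crosslink counts and genes with a listed site in each LL24 library, on log scales; circles, squares and triangles are replicates 1, 2 and 3, and the line is the mean. All AtGRP7-GFP libraries (8109 to 25115 sites) lie above all GFP-only libraries (27 to 293 sites).

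Of 1418 genes listed in any AtGRP7-GFP library, 598 were bound, 311 of them in all 3 libraries and 287 in exactly 2. The other 820 were listed in 1 library. A more stringent definition, the same base in at least 2 libraries, left 471 transcripts, and the same base in all 3 left 248. Bound transcripts held 94.1% to 98.1% of the counts of each AtGRP7-GFP library. Across the 311 transcripts listed in all 3 libraries, the log2 shares of any 2 libraries correlated with r between 0.81 and 0.84 (Pearson, across genes of the same tissue, which are not independent replicates). At single bases, 67.9% of the positions of replicate 1 were found again in replicate 2, the deepest library, and 36.9% in replicate 3, the shallowest.

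GFP-only libraries listed 180 genes, of which 15 appeared in at least 2 libraries and 4 in all 3. Of the bound transcripts, 66 were also listed in a GFP-only library (11.04% of the bound transcripts and 36.7% of the genes of GFP-only plants), and 532 were not. The overlap was larger among transcripts with high shares. GFP-only libraries listed 16 of the 25 bound transcripts with the highest mean share in AtGRP7-GFP plants, 22 of the next 75 and 28 of the other 498. Of the 15 genes recurring in GFP-only plants, 14 were bound. In contrast, 94 of the 180 genes were in no AtGRP7-GFP library, and 93 of these were listed in 1 GFP-only library. When genes of the LL24 libraries of AtGRP7 R49Q-GFP plants, which express an RNA-binding mutant, were removed as well, 393 of the 532 transcripts were left.

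At the level of bases, AtGRP7-GFP libraries listed 31036 distinct positions, 10749 of them reproducible and 4348 in all 3 libraries. GFP-only libraries listed 472 positions, of which 44 were in at least 2 libraries and 11 in all 3. All 44 recurring GFP-only positions were also listed in AtGRP7-GFP plants. Of these, 20 lay inside tRNA genes, 8 in the 3′ UTR and 5 in the coding sequence of RBCS1A and 4 in TPPI, and the others in FED A, RBCS3B, AT5G28410 and LHCB3. The 11 positions found in all 3 GFP-only libraries were in tRNA genes, except 1 in TPPI. Of all GFP-only positions, 278 (58.9%) were listed in AtGRP7-GFP plants, whereas 0.896% of the AtGRP7-GFP positions were listed in GFP-only plants. Taken by library, 74.0%, 54.1% and 77.8% of the positions of GFP-only replicates 1, 2 and 3 were listed in AtGRP7-GFP plants, and the positions of GFP-only replicate 2, the library with the most sites, were found least often.

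Transcripts for photosynthesis held more counts than any other group examined. Among them, the antenna, photosystem I and Calvin-Benson cycle groups had a higher summed share in every AtGRP7-GFP library than in any GFP-only library, whereas the rubisco and photosystem II groups overlapped. Over 5 lists with 65 members (the rubisco small subunits and rubisco activase, the light-harvesting antenna, both photosystems, and the Calvin-Benson cycle with carbonic anhydrases), 60 were bound. Of all 1418 genes listed in any AtGRP7-GFP library, 598 were bound, a share that is not matched for abundance. Together the 5 lists took 54.0%, 50.1% and 59.98% of the counts in AtGRP7-GFP replicates 1 to 3 and 33.9%, 20.9% and 8.86% in GFP-only replicates 1 to 3, without overlap between the genotypes. In GFP-only replicate 3 this was 1 transcript, PSBTN, with 7 counts.

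Shares per gene were tested with edgeR's quasi-likelihood test, with the sum of listed counts as library size, over the 817 genes with at least 10 counts in all. At an adjusted p below 0.05 (Benjamini-Hochberg over the 817 genes), 65 genes (7.96%) had a higher share in AtGRP7-GFP plants and 40 (4.9%) a lower share; 145 genes had an unadjusted p below 0.05. Of the 817 genes, 732 were in no GFP-only library and passed the minimum count through AtGRP7-GFP plants alone. The test enters a missing gene as 0 counts, although positions below the FDR are not listed. Its p-values therefore compare listed counts, and the numbers of calls are a description. For a gene that no GFP-only library listed, p depends on its AtGRP7-GFP counts and does not show absence from GFP-only plants. Below, a gene that passed had an adjusted p below 0.05 here and nothing more. The split into higher and lower shares depended on the scaling. It was 149 higher and 6 lower with TMM factors and 128 higher and 2 lower with DESeq2 and its poscounts size factors. The median log2 difference of the 83 tested genes listed in both genotypes was −2.06 with library totals, 0.13 with TMM and 0.79 with poscounts, and directions below are relative to the library totals. All 65 genes with a higher share were listed in all 3 AtGRP7-GFP libraries, and 58 of them in no GFP-only library. Their mean shares in AtGRP7-GFP plants ranged from 0.207% to 3.05%. At the same shares, the 1578 counts of GFP-only plants would have held 3.26 to 48.2 counts of these genes. Without GFP-only replicate 2, which holds most GFP-only counts, 15 genes had a higher share.

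The small subunits of rubisco, the enzyme that fixes CO2, and rubisco activase were the transcripts with the highest shares. RBCS1A held 4786, 8636 and 3532 counts in AtGRP7-GFP replicates 1 to 3 and 105, 104 and 0 in GFP-only replicates 1 to 3. Its share was 10.4%, 8.79% and 12.9% in AtGRP7-GFP plants against 20.6% and 10.5% in the GFP-only libraries that listed it, so that the genotypes overlapped (log2 difference −0.09 ± 1.21 (SE), edgeR adjusted p = 0.944). RBCS3B had 2562, 4403 and 1739 counts against 13, 39 and 0, and RCA, which encodes rubisco activase, had 1087, 1954 and 899 against 10, 8 and 0. Neither passed the test (edgeR adjusted p = 0.775 and 0.549). Of the 5 members, only RBCS1B passed, with 565, 959 and 282 counts against 1, 0 and 0. Its ratio of pooled shares was 16.6, with a 95% exact interval from 2.98 to 657 that covers counting error only (edgeR adjusted p = 0.00425). The group as a whole took 21.5% ± 4.01 (SD, n = 3) of the counts in AtGRP7-GFP plants and, with GFP alone, 13.9% ± 12.8 (SD, n = 3).

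Antenna proteins bind chlorophyll and pass light energy to the photosystems. Of the 20 members of this group, 17 were bound. Of the 18 tested, 9 had a higher share and none a lower one, beside 7.96% and 4.9% of all 817 genes. The shares of the group summed to 10.08%, 10.4% and 11.6% against 1.76%, 2.93% and 0%. LHCB2.1 had 471, 903 and 306 counts, LHCB6 had 404, 780 and 231, and LHCA1 had 396, 804 and 272. None of the 3 was listed in GFP-only plants (edgeR adjusted p = 0.00109 for each). CAB1 and LHCA3 had larger shares (1.46% and 1.28% of the counts in AtGRP7-GFP plants), but GFP-only replicate 2 listed them with 9 and 5 counts, and they did not pass (edgeR adjusted p = 0.236 and 0.0566). LHCB3 went the other way, with 0.383%, 0.452% and 0.484% against 1.37%, 0.809% and 0%, and did not pass either (edgeR adjusted p = 0.328). LHCB4.3 and LHCA5 were in none of the 6 libraries.

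Photosystem I takes up electrons from plastocyanin and passes them to ferredoxin. Here 11 of 12 subunit transcripts were bound, and 7 of 12 tested had a higher share, beside 7.96% of all 817 genes. The sum was 7.53%, 7.35% and 7.14% in AtGRP7-GFP plants against 3.53%, 0.101% and 0% in GFP-only plants. PSAF held 444, 1007 and 231 counts and PSAK 388, 737 and 262, without any in GFP-only plants (edgeR adjusted p = 0.00109 for both). PSAL had the highest share of the group, 1.71% ± 0.04 (SD, n = 3), but 13 counts in GFP-only replicate 1 made up 2.55% of that library, and it did not pass (edgeR adjusted p = 0.775). The transcripts of the proteins that carry electrons to and from this photosystem, plastocyanin (DRT112) and ferredoxin (FED A), were bound and also did not pass. DRT112 had 726, 1349 and 412 counts against 0, 11 and 0, and FED A had 388, 997 and 255 against 14, 11 and 0.

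All 13 photosystem II subunit transcripts on the list were bound, and 5 had a higher share, beside 7.96% of all 817 genes tested. PSBR held 1338, 2392 and 1041 counts against 4, 4 and 0. Of the genes listed in at least 2 GFP-only libraries, it alone passed with a higher share in AtGRP7-GFP plants. Its log2 difference was 2.57 ± 0.75 (SE, edgeR adjusted p = 0.0255) and its ratio of pooled shares was 5.49 (95% exact interval from 2.78 to 12.7, counting error only). With numbers of positions in place of counts, its difference was −0.25. PSBW had 542, 1165 and 419 counts and was not listed in GFP-only plants (edgeR adjusted p = 0.00109). PSBX had 638, 1264 and 470 against 6 in GFP-only replicate 2 alone and did not pass (edgeR adjusted p = 0.0648). The sum of the group was 9.16%, 8.52% and 10.4% against 2.94%, 1.42% and 8.86%.

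For the Calvin-Benson cycle and carbonic anhydrases, 14 of 15 transcripts were bound and 9 of 14 tested had a higher share. The sum was 6.01%, 6.07% and 5.23% against 0.392%, 0.202% and 0%. CA1, a carbonic anhydrase of the chloroplast, had 560, 1007 and 325 counts against 1 in GFP-only replicate 2, a ratio of pooled shares of 17.4 (95% exact interval from 3.12 to 688; edgeR adjusted p = 0.00176). FBA2, a plastid aldolase, had 390, 776 and 183 counts and none in GFP-only plants (edgeR adjusted p = 0.00112). Over the 5 photosynthesis lists, 31 of 62 tested genes had a higher share and none a lower one, beside 7.96% and 4.9% of all 817 genes. The number with a higher share was 48 with TMM, 49 with poscounts, 21 with DESeq2 and library totals and 24 with positions in tRNA genes left out. It was 12 without GFP-only replicate 2, and 0 with numbers of positions in place of counts or with the replicate number as a block. The 7.96% over all 817 genes is no background matched for share. Every gene with a higher share held at least 0.207% of the AtGRP7-GFP counts on average, and the lists were chosen with earlier results known.

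**Figure D2:**
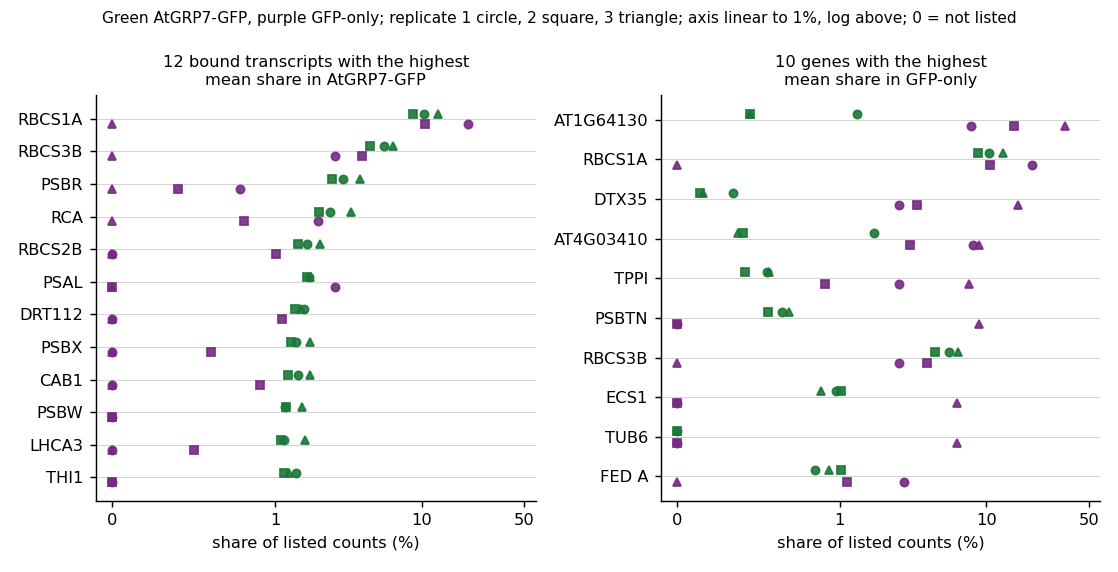
Share of listed counts (%) in each library for the 12 bound transcripts with the highest mean share in AtGRP7-GFP plants and the 10 genes with the highest mean share in GFP-only plants; green is AtGRP7-GFP, purple GFP-only, circles, squares and triangles are replicates 1, 2 and 3, the axis is linear to 1% and logarithmic above, and 0 means not listed. RBCS1A lies between 8.79% and 12.9% in AtGRP7-GFP plants and at 20.6% and 10.5% in GFP-only replicates 1 and 2, whereas PSBW and THI1 have no GFP-only counts.

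Outside photosynthesis, THI1, the enzyme that makes the thiazole part of vitamin B1, had the highest share among transcripts that GFP-only plants lacked. It held 641, 1139 and 341 counts (edgeR adjusted p = 0.00109). AT2G25510 and GRP3S, which encodes a glycine-rich protein, followed with 386, 837 and 221 and with 348, 666 and 235 counts, and GFP-only libraries did not list them (edgeR adjusted p = 0.00109 and 0.00112). CAT2, a catalase that removes hydrogen peroxide from photorespiration, had 303, 628 and 213 counts and none in GFP-only plants (edgeR adjusted p = 0.00118). It was the only one of 4 bound catalase and metallothionein transcripts that passed. In nitrogen assimilation, NIA2 (nitrate reductase) had 93, 279 and 61 counts and GS2 (plastid glutamine synthetase) 187, 479 and 102, both absent from GFP-only plants (edgeR adjusted p = 0.0405 and 0.00334). NIA1 and NIR1 were in none of the libraries. Of 14 aquaporins, which conduct water across membranes, 7 were bound, and PIP1B alone passed, with 108, 311 and 78 counts (edgeR adjusted p = 0.0251). The aquaporins took 0.509%, 0.750% and 0.542% of the counts in AtGRP7-GFP plants and none in GFP-only plants.

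Groups linked to the known roles of AtGRP7 held few counts, and their transcript levels were not taken into account. Of 12 cold-regulated transcripts, 3 were bound. KIN1 had 11, 13 and 0 counts, COR413-PM1 had 22, 25 and 0, and COR27 had 15, 28 and 11. Of 14 clock transcripts, only LUX, a part of the evening complex, was bound, with 14, 19 and 0 counts. CCA1 and LHY were listed in AtGRP7-GFP replicate 2 alone with 8 and 3 counts, and TOC1, GI, PRR5, PRR7 and PRR9 were not listed. AtGRP7 itself was listed with 3 counts in AtGRP7-GFP replicate 2 and nowhere else, and these reads may come from the transgene as well as from any remaining endogenous transcript. AtGRP8 was not listed in any of the 6 libraries. Of 12 transcripts for glycine-rich and chloroplast RNA-binding proteins, 5 were bound, among them PAB2, a poly(A)-binding protein, with 21, 34 and 15 counts. Of 17 further transcripts that the study had examined as targets or controls, FNR2 (0, 88 and 12 counts) and PR4 (18, 47 and 8) were bound. No gene of these 4 lists passed the test. Of their members, only PAB4, of the list of RNA-binding proteins, was in a GFP-only library, with 4 counts in replicate 2. That list took 0.404% of the counts of this library and 0.148%, 0.138% and 0.0916% in AtGRP7-GFP replicates 1 to 3. A transcript at the level of COR27, 0.0338% of the counts, would hold less than 1 count in all GFP-only libraries together, so that a difference was not detectable at this depth.

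**Figure D3:**
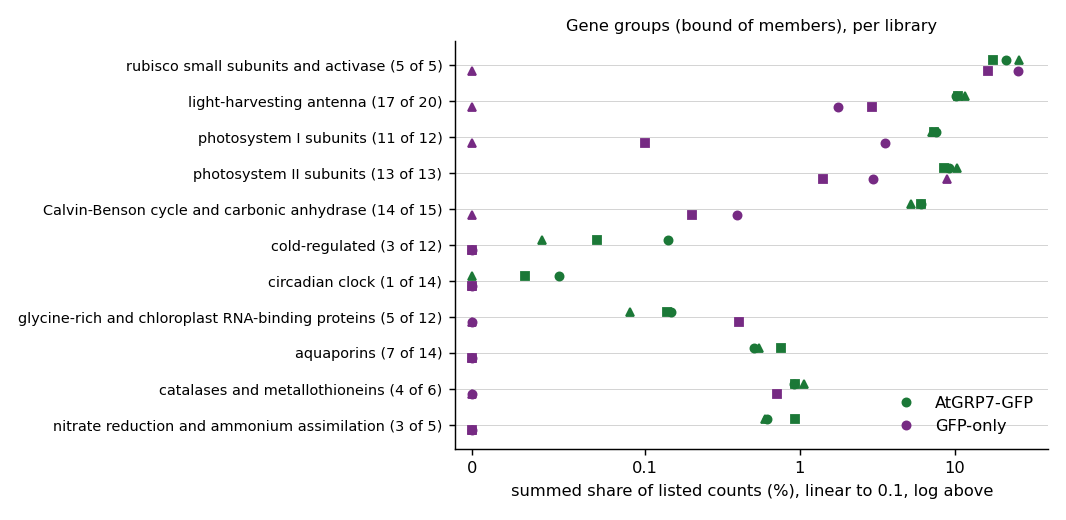
Summed share of listed counts (%) of each gene group in each library, with the number of bound transcripts of the members in brackets; green is AtGRP7-GFP, purple GFP-only, circles, squares and triangles are replicates 1, 2 and 3, and the axis is linear to 0.1% and logarithmic above. Calvin-Benson cycle transcripts lie at 5.23% to 6.07% in AtGRP7-GFP plants and at no more than 0.392% in GFP-only plants, while the rubisco group overlaps between the genotypes.

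The 40 genes with a lower share in AtGRP7-GFP plants fell into those that recurred in GFP-only plants and those seen there once. Of the 40, 32 were listed in 1 GFP-only library, with 3 to 15 counts, and 24 of these were from replicate 2. ABCG12, a transporter of cuticular wax, is an example with 15 counts in GFP-only replicate 2 and no other listing, so that its call rests on 1 library. RPS1, a plastid ribosomal protein, had 7 counts in GFP-only replicate 2 against 5 in AtGRP7-GFP replicate 2 and was in no other library. With such genes set aside, 8 of the 15 genes that at least 2 GFP-only libraries listed had a lower share. They were AT1G64130, DTX35, AT4G03410, AT3G12587, TPPI, AT5G28410, AT3G27040 and AT4G02200. The last had 5 and 5 counts in GFP-only replicates 1 and 2 and was listed in no AtGRP7-GFP library.

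Of these genes, 4 owed their counts to tRNA genes that lie within or beside them on the same strand. AT1G64130 held 598, 439 and 123 counts in AtGRP7-GFP plants and 40, 153 and 27 in GFP-only plants, all inside AT1G64120, a gene for tRNA-Leu (anticodon CAA, chr1:23802553-23802636). Its share was 1.30%, 0.447% and 0.451% against 7.84%, 15.5% and 34.2%, a log2 difference of −4.63 ± 1.32 (SE; edgeR adjusted p = 0.022). DTX35, a transporter of the MATE family, had 159, 137 and 43 counts against 13, 33 and 13, all in the tRNA-Leu gene AT4G25635 (chr4:13076574-13076657), with a difference of −4.81 ± 0.96 (SE; edgeR adjusted p = 0.00166). Both tRNA-Leu genes are 84 nt long with 2 mismatches between them, and both had their highest position at base 39 of the gene, in identical windows. The split of reads between these 2 genes is therefore uncertain, and their differences are not independent. AT4G03410 had 786, 396 and 103 counts against 41, 30 and 7 in the tRNA-Gln gene AT4G03405 (anticodon CTG, chr4:1501607-1501678; difference −2.91 ± 0.88, SE; edgeR adjusted p = 0.0319). AT3G12587 had 75, 62 and 20 against 5, 10 and 0, most of them in the tRNA-Arg gene AT3G12585 (anticodon CCG, chr3:3995097-3995169; difference −3.14 ± 0.58, SE; edgeR adjusted p = 0.00112). The shares of all 4 were higher in each GFP-only library that listed them than in any AtGRP7-GFP library.

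Sites inside tRNA genes made up 12.0%, 10.9% and 55.6% of all sites in GFP-only replicates 1 to 3 and 0.567%, 0.255% and 0.530% in AtGRP7-GFP replicates 1 to 3. In counts this was 19.4%, 22.9% and 59.5% against 3.51%, 1.05% and 1.06%. The libraries did not overlap, and the difference in sites was −25.7 percentage points (exact permutation test, two-sided p = 0.1, the smallest possible) and −11.02 without GFP-only replicate 3. The same 4 of the 625 annotated tRNA genes were listed in both genotypes. In absolute counts, AtGRP7-GFP libraries held more of them, 1160 against 220 for AT1G64120 and 1285 against 78 for AT4G03405. None of the 4 tRNA genes has an identical copy among the 625. The authors kept uniquely mapped reads, so that reads from tRNA genes with identical copies would not have been kept.

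TPPI, a trehalose phosphate phosphatase, AT5G28410 and AT3G27040 were the remaining genes with a lower share and a GFP-only recurrence that were listed in both genotypes. TPPI had 253, 408 and 154 counts against 13, 9 and 6, a log2 difference of −2.41 ± 0.74 (SE; edgeR adjusted p = 0.0336). AT5G28410 had 100, 140 and 40 against 6, 7 and 0, and AT3G27040 had 44, 77 and 43 against 4, 3 and 0 (edgeR adjusted p = 0.00692 and 0.0336). These directions did not hold under every scaling. The difference was 0.37 with TMM and 0.78 with poscounts for TPPI, 0.13 and 0.79 for AT3G27040, and with poscounts 0.64 for AT5G28410 and 0.16 for AT4G03410. In all 3 genes the XL site lay upstream of A-rich sequence, as the windows given above show. A run of AAAAAA within the 10 nt after the site was found at 2.88%, 2.40% and 3.70% of the positions of GFP-only replicates 1 to 3 (6, 7 and 1 positions) and at 0.538%, 0.464% and 0.519% in AtGRP7-GFP plants. Of all positions in the spliced models with a reproducible site, 0.520% precede such a run. The motif was searched as AAAAAA on the transcript strand only, after these windows had been seen. TPPI, AT5G28410 and AT3G27040 themselves supplied 3, 2 and 2 of the distinct GFP-only positions before such a run, out of 5, 3 and 4 GFP-only positions in them. The GFP-only shares are therefore not independent of the genes that prompted the search. COR27, which no GFP-only library listed, also had 3 of its 8 AtGRP7-GFP positions before such a run.

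RBCS1A was the richest source of positions in both genotypes and allowed its map to be compared. AtGRP7-GFP libraries listed 303, 317 and 289 positions in it, and GFP-only replicates 1 and 2 listed 43 and 37, every one of which was also an AtGRP7-GFP position. The highest position was the same base, 25048499 on chromosome 1 in the coding sequence, in all 5 libraries that listed the gene, with 291, 391 and 171 counts in AtGRP7-GFP plants and 24 and 15 in GFP-only plants. The maps differed in the upstream part of the transcript. AtGRP7-GFP plants had 27, 30 and 24 positions in the 5′ UTR and GFP-only plants had none. Of the coding positions, 37 of 163, 42 of 174 and 30 of 150 lay in the last of 3 equal parts of the coding sequence in AtGRP7-GFP plants, against 12 of 15 and 9 of 9 in GFP-only plants. GFP-only maps rest on 105 and 104 counts, and positions within a transcript are not independent, so that this difference was not tested.

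Over all transcripts, XL sites of AtGRP7-GFP plants lay most often in the 3′ UTR and then in coding exons, while in GFP-only plants coding exons came first. The 3′ UTR held 46.0%, 46.1% and 44.4% of the placed sites in AtGRP7-GFP replicates 1 to 3 and 38.8%, 33.9% and 25% in GFP-only replicates 1 to 3. Coding exons held 37.9%, 40.3% and 40.1% against 53.1%, 53.4% and 65.0%, and the 5′ UTR 12.5%, 11.2% and 12.5% against 5.61%, 7.58% and 10.0%. In these 3 regions the genotypes did not overlap, with differences of 12.9, −17.7 and 4.33 percentage points (exact permutation test, two-sided p = 0.1 each, adjusted over 4 regions p = 0.133). Introns held 3.60%, 2.31% and 3.06% against 2.55%, 5.05% and 0%, which overlapped (difference 0.454 percentage points, exact permutation p = 0.8, adjusted p = 0.8). When counts were used instead of sites, the difference in the 5′ UTR turned to −0.32 percentage points. Sites in the tRNA genes are part of these shares, since AT4G03405 lies in the 5′ UTR of AT4G03410 and AT4G25635 overlaps coding sequence of DTX35. Without them the differences were 5.64 percentage points in the 3′ UTR, −16.4 in coding exons and 9.48 in the 5′ UTR.

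**Figure D4:**
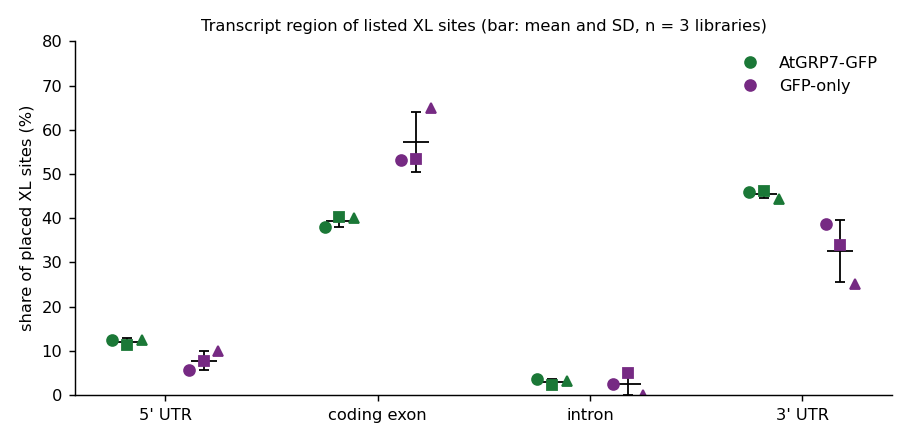
Share of placed XL sites (%) in the 5′ UTR, coding exons, introns and 3′ UTR for each LL24 library; circles, squares and triangles are replicates 1, 2 and 3, and black bars are the mean and SD of 3 libraries. The 3′ UTR holds 44.4% to 46.1% of the sites in AtGRP7-GFP plants and 25% to 38.8% in GFP-only plants, and coding exons show the opposite order.

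Reproducible positions were spread over many transcripts. Of 10642 that could be placed, 48.5% lay in the 3′ UTR of 284 transcripts, 36.3% in coding exons of 212, 12.3% in the 5′ UTR of 131 and 2.81% in introns of 53. Of the 459 transcripts, 144 had all their reproducible positions in the 3′ UTR, 82 in coding exons, 41 in the 5′ UTR and 44 in introns, and 69 had some in each exonic region.

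In AtGRP7-GFP plants the sites gathered around the start codon and shortly behind the stop codon. Of the sites in spliced sequence, 30.5%, 28.1% and 32.4% lay within 100 nt of the start codon in AtGRP7-GFP replicates 1 to 3, against 5.24%, 13.3% and 15% in GFP-only replicates 1 to 3. These are 10, 35 and 3 sites in GFP-only plants. The difference of 19.2 percentage points had p = 0.1 (two-sided exact permutation test), was measured after the profile had been seen, and was 18.4 without RBCS1A. Around the stop codon the libraries overlapped, with 34.4%, 35.2% and 33.3% against 48.2%, 30.8% and 45.0% (exact permutation p = 0.4). Each region was also divided into 3 equal parts. The last part of the 5′ UTR held 80.6%, 78.5% and 83.4% of the 5′ UTR sites of AtGRP7-GFP plants. In GFP-only plants it held 0%, 61.9% and 0% of only 11, 21 and 2 such sites. The first part of the coding sequence held 66.8%, 64.2% and 69.6% of coding sites, against 26.9%, 35.8% and 46.2% in GFP-only plants, which had 104, 148 and 13 such sites. Counted by transcript, the median reproducible position lay in the first part of the coding sequence in 155 of 212 transcripts, and in 126 of 160 when the 5 photosynthesis lists were left out. In the 3′ UTR it lay in the first part in 153 of 284 transcripts, in the middle part in 112 and in the last part in 19.

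**Figure D5:**
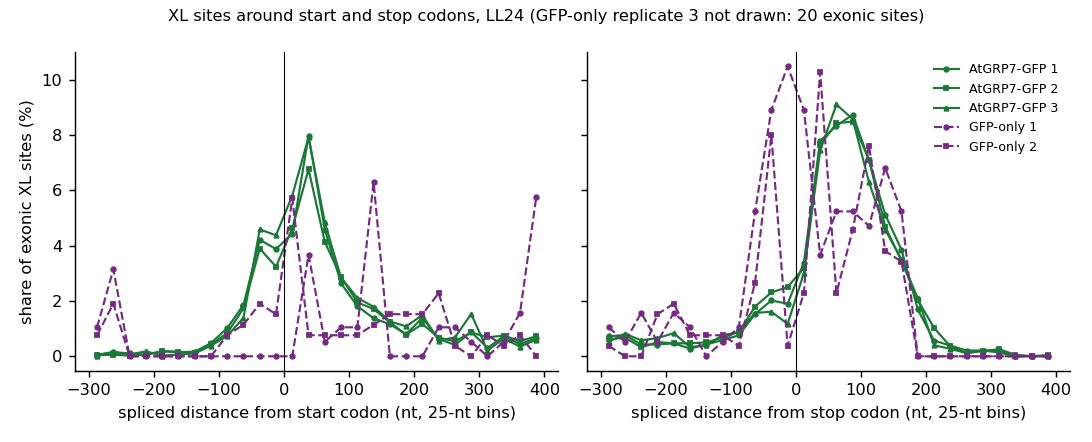
Share of exonic XL sites (%) in bins along the spliced distance (nt) from the start codon and from the stop codon, as 1 line per library; green lines are AtGRP7-GFP, dashed purple lines GFP-only, and GFP-only replicate 3 is not drawn because it has 20 exonic sites. The 3 AtGRP7-GFP lines follow each other, with 28.1% to 32.4% of sites within 100 nt of the start codon, against 5.24% and 13.3% in the GFP-only libraries drawn.

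Uridine was the most frequent base at XL sites in both genotypes. It stood at 55.3%, 54.5% and 53.7% of sites in AtGRP7-GFP plants and at 54.8%, 52.2% and 51.9% in GFP-only plants, values that overlapped (difference 1.53 percentage points, exact permutation p = 0.3). Without the tRNA genes the difference was −2.28. Among reproducible positions the share of uridine was 56.0% in the 5′ UTR, 55.0% in coding exons and 58.7% in the 3′ UTR, where 30.6%, 26.6% and 38.0% of all bases of the same transcript regions were uridine. The highest position of each of the 471 transcripts with a reproducible position was a uridine in 85.6% of cases, and 58.6% of these uridines were followed by C, as in 9 of the windows given above. For all reproducible uridines this was 31.1%, for the uridines at GFP-only positions outside tRNA genes 37.0%, and for every uridine of the same spliced models 24.95%. By library, C followed 31.0%, 29.7% and 31.7% of the uridines in AtGRP7-GFP replicates 1, 2 and 3, and 37.1%, 35.7% and 42.9% in GFP-only replicates 1, 2 and 3, the last of which had only 7 such uridines. The share was thus not lower in GFP-only plants.

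Pentamers differed between transcript regions. They were counted on the transcript strand in the windows of 10 nt on either side of reproducible positions and compared with the windows around every base of the same regions. In the 3′ UTR, UGUAA had the largest excess among pentamers found in at least 5% of windows, with 14.1% against 4.64%, and it was found near a site of 84 of 284 transcripts. Windows of GFP-only sites held it in 14.01% of cases, close to the share of AtGRP7-GFP plants. In coding exons, UCUUC was found in 18.3% of windows against 5.32% of all windows and in 7.88% of those of GFP-only sites. Restricted to the first of the 3 parts of the coding sequence, it was 22.5% against 8.43%. In the 5′ UTR, UCUUG was found in 7.46% against 2.12%, and CUCUC in 17.4% against 7.24%. The 18 windows of GFP-only sites there held UCUUG in 0% and CUCUC in 27.8% of cases. Windows of neighbouring positions overlap, and these shares carry no test.

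Intronic positions were few, and most were not in plain intron sequence. Of 299 reproducible intron positions in 53 transcripts, 131 were exonic in another model of the same gene. The largest such group was in CA1, where 58 positions lay between 195025 and 195096 on chromosome 3, minus strand. Inside annotated snoRNA genes lay 77 of the 299 (25.8%), 8 of them also among the 131, within 15 host genes that were singled out after their values had been seen. snoRNAs guide the chemical modification of other RNAs, above all ribosomal RNA. The hosts included FIB1, which encodes the rRNA methylase fibrillarin (11, 25 and 7 counts inside the snoRNA gene), UBQ1, which encodes a ubiquitin fused to a ribosomal protein (13, 25 and 2), and RPL34 (33, 18 and 14). In all, snoRNA genes took 1.57%, 0.872% and 1.32% of the sites of AtGRP7-GFP replicates 1 to 3, in 20 to 23 snoRNA genes per library. GFP-only libraries listed none among 208, 293 and 27 sites. The remaining 87 intron positions, in 25 genes, were in none of these classes and in no tRNA gene.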

How the data were processed

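For each library, the authors deposited a list of significant XL sites with a count per position. Per their methods and processing notes, reads were trimmed (cutadapt 1.9.1), PCR duplicates were removed by random barcodes, and unique reads were mapped to TAIR10 (STAR 2.5.2a). Positions passed an FDR computed from random placements within the same transcript region. The counts are raw and not scaled for depth.

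Counts were summed per gene. Shares were tested with edgeR 4.0.16 (quasi-likelihood, summed count of at least 10, no scaling beyond library totals), with DESeq2 1.42.0 as an alternative, in R 4.3.3. Values per library were compared by two-sided exact permutation tests, the smaller tail doubled. Positions were placed in the authors' transcript model using RefSeq TAIR10.1. Of 46804 entries in the 6 libraries, 370 lay outside the model and 212 had no model there. Python 3.11.15 and pandas 2.3.3 were used. The edgeR step was tested on simulated counts. Alternatives were other scalings and filters, numbers of positions, tRNA genes left out, a replicate block and leaving out each library.

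The text names the 12 bound transcripts with the highest mean share, the 10 genes highest in GFP-only plants, up to 10 genes in each direction by adjusted p, the transcripts the paper discusses, and up to 4 members of each list with those listed nowhere. The members and lists were chosen with earlier results of these data known. Replicates are biological replicates per the study's methods, and p-values measure the spread between these libraries. Depth, 79 to 98235 counts per library, and genotype cannot be told apart. Other libraries of the series were not analysed here, except to remove genes of AtGRP7 R49Q-GFP.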

Additional observations from a re-analysis of the deposited data

How the results depend on the processing

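Bound transcripts numbered 598, and 311 when all 3 libraries were required. Leaving out 1 AtGRP7-GFP library gave 318 to 515 (387 without replicate 1, 318 without replicate 2). Bound transcripts that GFP-only plants lacked numbered 532, 257 with all 3 libraries, and 264 to 565 without 1 library (327 without AtGRP7-GFP replicate 1, 264 without AtGRP7-GFP replicate 2).

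The counts of genes with a different share moved most. Higher shares numbered 65, with 149 for TMM, 128 for poscounts, 32 for DESeq2 with library totals, 0 for numbers of positions (77 genes at an unadjusted p below 0.05), and 15 to 65 without 1 library (15 without GFP-only replicate 2). Lower shares numbered 40, with 6 for TMM, 2 for poscounts, 9 for DESeq2 with library totals, 91 without the filter on low counts, 4 with at least 50 counts, 9 for numbers of positions, and 7 to 36 without 1 library (8 without AtGRP7-GFP replicate 2, 7 without AtGRP7-GFP replicate 3, 18 without GFP-only replicate 2). All 65 genes with a higher share remained so with TMM and with poscounts, and 32 with DESeq2 and library totals. Of the genes with a different share, 7 of the 65 were listed in both genotypes and 8 of the 40 in at least 2 GFP-only libraries, counts added after the data were seen. The cause of these moves was not tested, apart from the number of genes tested with another filter.

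With the replicate number as a block, edgeR called 0 genes in either direction (15 at an unadjusted p below 0.05). Same-numbered libraries deviated with correlations of 0.012, −0.065 and −0.089, and libraries of different number with −0.022 to 0.102. GFP-only libraries hold too few counts, 510, 989 and 79, for such correlations to show a pairing. Whether the numbers pair the samples was therefore not determined. The block left the differences between genotypes as they were, 6.85 for log2 sites, 4.33, −17.7, 0.454 and 12.9 percentage points for the 5′ UTR, coding exons, introns and 3′ UTR, −25.7 for tRNA genes, 1.53 for uridine and 19.2 for the start codon. Its sign-flip p was 0.25, the smallest possible, except for introns at 0.75.

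Reversed differences were those of the 5′ UTR by counts (−0.32), of introns without GFP-only replicate 3 (−0.81; 1.71 without GFP-only replicate 2, in the same direction as with all libraries) and of uridine without tRNA genes (−2.28). Among genes they were PSBR by positions (−0.25), TPPI with TMM (0.37) and poscounts (0.78), AT3G27040 with TMM (0.13) and poscounts (0.79), and AT4G03410 (0.16) and AT5G28410 (0.64) with poscounts. The cause was not tested. The share of GFP-only positions found in AtGRP7-GFP plants, 58.9%, ranged from 54.1% to 73.1%, the latter without GFP-only replicate 2. Depth limits most values of GFP-only plants, which rest on 1578 counts.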

Other observations

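Several transcripts outside the lists, chosen after their values were seen, also had high shares in AtGRP7-GFP plants and no GFP-only listing. Photorespiration, the pathway that recycles the product of the oxygenase reaction of rubisco, was represented by SHM1 (serine hydroxymethyltransferase), with 0.720% ± 0.12 (SD, n = 3) of the counts, and GLDP1 (a subunit of glycine decarboxylase), with 0.520% ± 0.10 (SD, n = 3). The edgeR adjusted p was 0.00118 and 0.00176. ATPC1, the gamma subunit of the chloroplast ATP synthase, had 0.461% ± 0.028 (SD, n = 3; edgeR adjusted p = 0.00334), and LP1, a lipid transfer protein, 0.609% ± 0.086 (SD, n = 3; edgeR adjusted p = 0.00138). They had 99, 89, 79 and 44 reproducible positions, respectively. GRP-3, a glycine-rich protein, had 0.795% ± 0.042 (SD, n = 3) of the counts but was listed in 1 GFP-only library and did not pass (edgeR adjusted p = 0.937).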
